A study of Mus musculus with 36 samples.

Results

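The acute phase genes described here are 10 mouse genes named by their symbols: the serum amyloid A genes Saa1, Saa2 and Saa3, the orosomucoid genes Orm1, Orm2 and Orm3, haptoglobin (Hp), hemopexin (Hpx), Itih4 and lipocalin 2 (Lcn2). All 10 symbols matched a single Ensembl identifier among the 78239 gene identifiers counted. The genes were listed by name, but with earlier results of these data known. The RNA came from the hearts, kidneys and livers of wild-type males of the strain C57BL/6NCrl, killed when 8, 10 or 12 weeks old, and each of the 9 combinations of organ and age has 4 libraries (36 in all). The animals were untreated apart from what all groups shared: ketamine and xylazine anaesthesia and bleeding from behind the eye before they were killed, after which the organs were snap-frozen. Ages were compared to follow the passage from late adolescence to young adulthood, and the libraries of a group carry separate numbers, which are used as names below. The labels do not say that the same number marks the same mouse in the other organs, so each p-value measures the spread between libraries of a group.

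The acute phase response is the change in plasma proteins that follows infection or injury. Interleukin 1 and tumour necrosis factor act through NF-kappa B and C/EBP factors, interleukin 6 and its relatives through STAT3, and hepatocytes answer within hours by making more of the positive acute phase proteins and less of the negative ones such as albumin and transthyretin. Serum amyloid A proteins travel on high-density lipoprotein, orosomucoids bind drugs and lipids, haptoglobin and hemopexin capture free haemoglobin and haem, Itih4 belongs to the inter-alpha-trypsin inhibitor heavy chain family, and lipocalin 2 withholds bacterial iron carriers and is also made by neutrophils and by injured kidney tubules.

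The 10 genes lie in few places. On GRCm39, Saa3 (chr7:46361422-46365576), Saa1 (chr7:46389916-46392547) and Saa2 (chr7:46401214-46403737) are neighbours, as are Orm1 (chr4:63261052-63272189), Orm3 (chr4:63274208-63277748) and Orm2 (chr4:63280686-63284115). Hpx is at chr7:105240817-105249344, Hp at chr8:110301759-110305804, Itih4 at chr14:30608378-30624310 and Lcn2 at chr2:32274645-32278264. The canonical transcripts of Saa1 and Saa2 were 94.3% identical over 652 bases, and those of Orm1 and Orm2 91.0% over 775 bases. In no member was a 150-base window of the transcript found unchanged in another gene, but pairs without a difference between copies are not counted by the aligner, so the values within both families carry that uncertainty. Orm1 shares 14.5% of its exon bases with another annotated gene, and pairs on those bases count for neither.

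For 4 members, the 250 bases before the gene start in the RefSeq promoter table are printed, because Saa1, Saa2 and Lcn2 differed most among the livers and Orm2 stands for its family. The table (RefSeq, GRCm38.p6) held 8 of the 10 members, not Orm1 and Hp, and each stretch was located in GRCm39 by an exact match. The gene bounds given above are those of GENCODE, which differ from the RefSeq starts for most members. All 250 bases for Lcn2, 143 for Saa1, 43 for Saa2 and 0 for Orm2 lie inside those bounds. Capitals mark the letters TTGCNNAA, read on both strands, the core of a binding motif of C/EBP factors. Saa1 is shown from chr7:46392405-46392654 on the minus strand, Saa2 from chr7:46401007-46401256 on the plus strand, Orm2 from chr4:63280436-63280685 on the plus strand and Lcn2 from chr2:32277752-32278001 on the minus strand.
Saa1: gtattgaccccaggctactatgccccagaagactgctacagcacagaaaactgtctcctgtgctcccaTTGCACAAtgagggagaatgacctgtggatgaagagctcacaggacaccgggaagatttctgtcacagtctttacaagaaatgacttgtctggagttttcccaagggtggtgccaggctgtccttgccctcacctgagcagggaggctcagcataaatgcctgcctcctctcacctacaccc
Saa2: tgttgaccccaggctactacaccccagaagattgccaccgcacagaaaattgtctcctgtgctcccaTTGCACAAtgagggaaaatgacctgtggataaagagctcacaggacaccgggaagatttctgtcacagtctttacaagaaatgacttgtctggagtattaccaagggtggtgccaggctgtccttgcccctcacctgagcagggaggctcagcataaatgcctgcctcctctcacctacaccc
Orm2: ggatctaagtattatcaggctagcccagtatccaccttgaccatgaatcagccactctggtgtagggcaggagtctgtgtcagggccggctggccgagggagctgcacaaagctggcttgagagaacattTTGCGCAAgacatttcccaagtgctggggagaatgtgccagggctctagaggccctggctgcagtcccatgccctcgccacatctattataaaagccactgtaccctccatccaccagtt
Lcn2: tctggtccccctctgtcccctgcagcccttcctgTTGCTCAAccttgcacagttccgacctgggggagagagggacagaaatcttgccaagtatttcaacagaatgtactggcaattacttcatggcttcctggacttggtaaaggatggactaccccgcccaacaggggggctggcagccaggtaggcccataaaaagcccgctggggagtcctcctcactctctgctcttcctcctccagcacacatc
The C/EBP letters occurred once in 7 of the 8 promoters (Itih4 had none), against 9.56% of 32851 promoters of the same length. The STAT letters TTCNNNGAA occurred in 1 of the 8, that of Itih4 (background 7.02%), and the kappa B motif in 0 of 8 (background 3.90%). Counted from the RefSeq gene start, the C/EBP match began 182 bases upstream in Saa1, 183 in Saa2, 120 in Orm2 and 216 in Lcn2. The promoters of Saa1 and Saa2 were 94.8% identical and those of Orm2 and Orm3 85.5%, so these matches are not independent, and Saa1 and Saa3 shared 48.9%. Letters in a window are a description and were not tested for binding.

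Libraries held 21031599 to 33637390 read pairs counted on genes. The tissue labels fitted their defining markers: summed over 8 hepatocyte markers, CPM (counts per 1000000 counted pairs, scaled by edgeR's TMM factors) lay between 77513 and 128400 in liver, 6 cardiomyocyte markers gave 44892 to 59724 in heart, and 7 tubule markers 29107 to 36401 in kidney. In bulk RNA, fewer cells of a type and less RNA per cell cannot be told apart.

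All 10 members were expressed in liver, over a wide range. Per kilobase of merged exons, the median of 12 livers was highest for Hpx (2408 CPM per kilobase) and Hp (1985), followed by Itih4 (551), Orm1 (315), Saa1 (102), Saa2 (28.6), Orm2 (17.3), Lcn2 (5.88), Orm3 (1.77) and Saa3 (1.01). With the length of the canonical transcript in its place, a choice made after the annotation had been seen, Hp (2510) stood above Hpx (2411) and the other 8 kept their order. Orm3 and Saa3, the lowest pair, also overlapped in CPM across the livers.

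The members also differed in how much they varied from liver to liver. Saa2 spanned 6.94 to 2844 CPM (410-fold), Saa1 31.3 to 4079 (130-fold) and Lcn2 2.44 to 276 (113.3-fold). By the SD of log2 CPM over the 12 livers, Saa2 (2.57) was in place 3 of the 14672 genes tested, Saa1 (2.04) in place 8 and Lcn2 (1.86) in place 12, where the median gene had an SD of 0.27. Orm2 (15.4-fold), Saa3 (12.8-fold) and Orm3 (11.7-fold) came next. The abundant members varied least, with 3.85-fold for Itih4, 3.44-fold for Hp, 3.31-fold for Orm1 and 3.30-fold for Hpx.

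**Figure D1:**
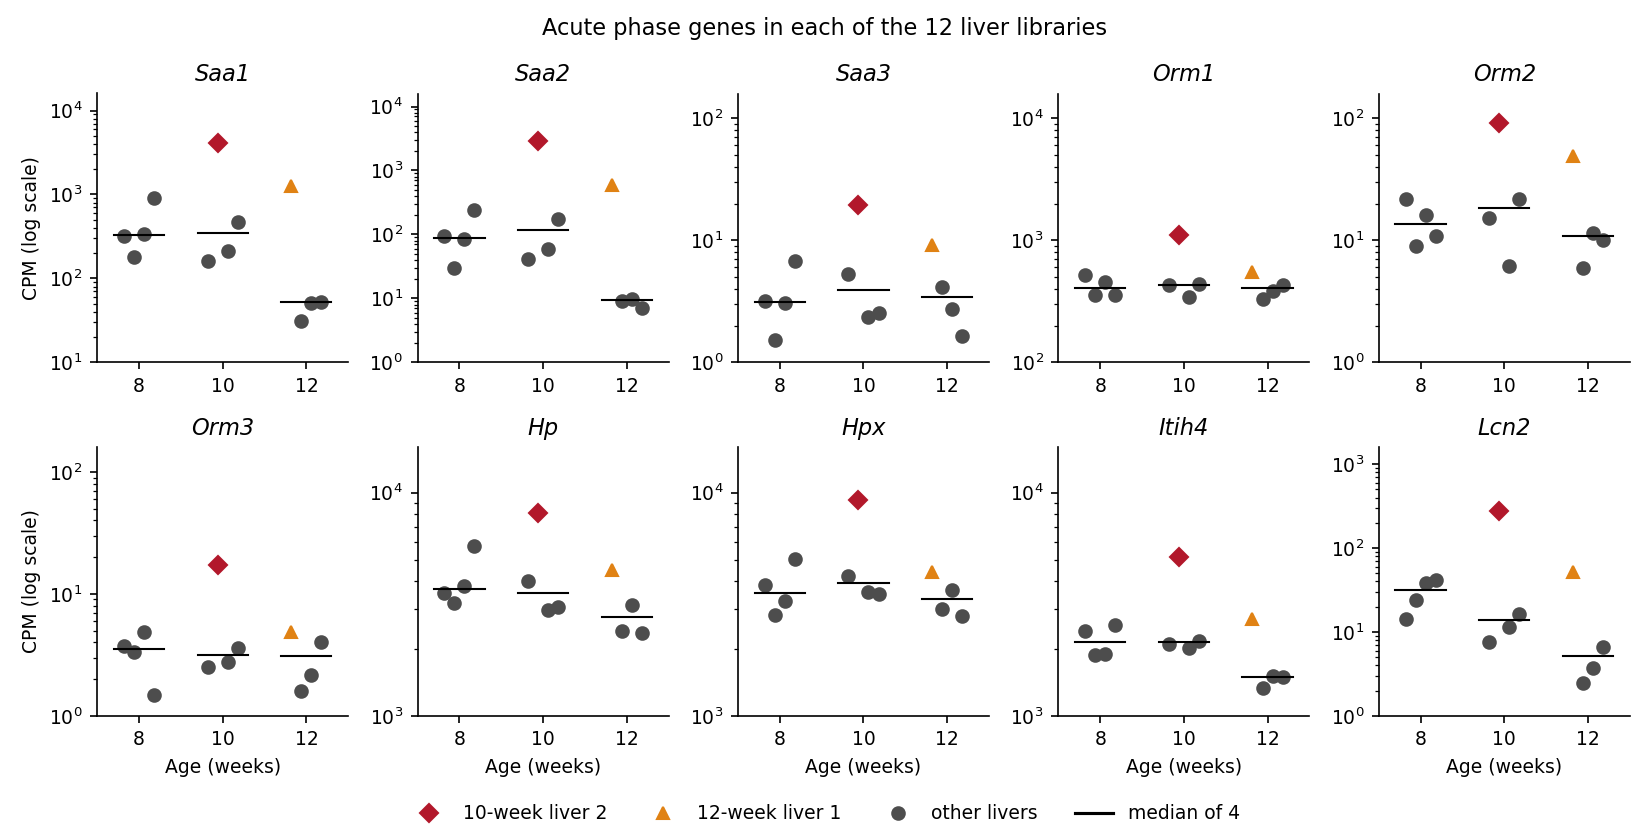
Level of each acute phase gene (CPM, log scale) in the 12 livers at 8, 10 and 12 weeks; points are libraries and bars the median of 4. The 10-week liver 2 (diamond) is the highest in all 10 panels, and the 12-week liver 1 (triangle) is in place 2 or 3 of 12.

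Saa1, an apolipoprotein of high-density lipoprotein, had 319.9, 181, 335 and 907 CPM in the 8-week livers 1 to 4. At 10 weeks it had 163, 4079, 215 and 476, and at 12 weeks 1251, 31.3, 51.4 and 52.9. The 12-week group held both the second highest liver of all and the 3 lowest, and the 8-week livers and the 10-week livers other than liver 2 lay between 163 and 907 CPM. Saa2, its near copy, followed a like pattern with wider steps: 93.6, 29.8, 85.1 and 239.5 CPM at 8 weeks, 41.2, 2844, 59.3 and 174 at 10 weeks, and 588, 9.23, 9.69 and 6.94 at 12 weeks. Saa2 made up 41.1% of the Saa1 and Saa2 counts in the 10-week liver 2 (95% Wilson interval 40.9 to 41.3) and 32.0% in the 12-week liver 1 (31.6 to 32.4), and 11.6% to 26.8% in the other 10. These intervals cover counting error only. Saa3, known from macrophages and fat as well as liver, spanned 1.53 to 6.73 CPM in 10 livers, with 19.6 in the 10-week liver 2 and 9.23 in the 12-week liver 1.

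Among the orosomucoids, carriers of basic drugs and lipids in plasma, Orm1 was the most even, with 331 to 521 CPM in 10 livers, 551 in the 12-week liver 1 and 1098 in the 10-week liver 2. Orm2 had 21.8, 8.97, 16.3 and 10.8 CPM at 8 weeks, 15.3, 91.7, 6.16 and 21.8 at 10 weeks, and 48.8, 5.94, 11.6 and 10.0 at 12 weeks. Orm2 reached 8.36 counts per 100 counts of Orm1 in the 10-week liver 2 and 8.85 in the 12-week liver 1, and 1.79 to 5.002 in the others. Orm3 spanned 1.48 to 4.90 CPM in 11 livers, the 12-week liver 1 (4.89) among them, with 17.3 in the 10-week liver 2.

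Hp and Hpx, which clear haemoglobin and haem, moved within a narrow band apart from the same library. Hp had 3552, 3205, 3835 and 5773 CPM at 8 weeks, 4002, 8102, 2979 and 3082 at 10 weeks, and 4491, 2399, 3124 and 2358 at 12 weeks. Hpx lay between 2815 and 5057 in 11 livers and at 9285 in the 10-week liver 2. Itih4 had 2398, 1883, 1898 and 2558 CPM at 8 weeks, 2107, 5124, 2023 and 2167 at 10 weeks, and 2706, 1330.2, 1506 and 1488 at 12 weeks. Without the 12-week liver 1, the 12-week values of Itih4 were below every value of the other ages.

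Lcn2, the iron carrier binder, had 14.4, 24.3, 38.3 and 42.1 CPM in the 8-week livers. At 10 weeks the values were 7.52, 276, 11.5 and 16.5, and at 12 weeks 51.9, 2.44, 3.77 and 6.56. Apart from the 10-week liver 2 and the 12-week liver 1, the 12-week livers lay below all the others, and the 10-week livers overlapped the 8-week ones.

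Every member was highest in the 10-week liver 2, a library that held the highest value of 10.5% of all genes tested in liver. Against the median of the 10 livers other than the pair, it was higher 56.6-fold in Saa2, 21.3-fold in Lcn2, 20.6-fold in Saa1, 8.21-fold in Orm2, 6.75-fold in Saa3, 5.65-fold in Orm3, 2.703-fold in Orm1, 2.61-fold in Itih4 and in Hpx, and 2.56-fold in Hp. The 12-week liver 1 was in place 2 for 7 members and in place 3 for Orm3, Hp and Hpx, with folds of 11.7 for Saa2, 6.33 for Saa1, 4.36 for Orm2 and 4.01 for Lcn2. The 8-week liver 4 was above the other 8-week livers in Saa1, Saa2, Saa3, Hp, Hpx, Itih4 and Lcn2 and lowest of them in Orm1 and Orm3. Counted share of pairs (74.4% and 73.5%) and unmapped share (6.50% and 7.49%) of the 10-week liver 2 and the 12-week liver 1 lay within the range of the other livers (68.6% to 78.8% and 2.81% to 13.0%).

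Other acute phase genes were high in the 10-week liver 2 but less so in the 12-week liver 1. Of 24 further acute phase proteins tested in liver, 18 were highest in the 10-week liver 2, 3 in the 8-week liver 4 and 2 in the 12-week liver 1. The 8-week liver 4 was second for 13 of the 24 and the 12-week liver 1 for 2. The 18 included Serpina3n, a protease inhibitor, at 2315 CPM (3.75-fold over the median of the other 11 livers), Apcs, the pentraxin serum amyloid P, at 307 CPM (3.69-fold), Steap4, a metal reductase, at 1027 CPM (5.29-fold), and Fga, the fibrinogen alpha chain, at 10184 CPM (2.01-fold). The median fold of the 24 was 2.06 in this library and 1.13 in the 12-week liver 1, beside 5.77 and 2.23 for the 10 members and 1.00 and 0.988 for all genes tested. Of 17 inducing cytokines, receptors and factors, 7 were highest and 1 lowest in the 10-week liver 2, and 4 were highest in the 12-week liver 1. Their median fold was 1.46 (0.767 to 3.62) in the 10-week liver 2 and 1.14 (0.923 to 4.59) in the 12-week liver 1. In the 10-week liver 2, Osmr, the oncostatin M receptor, was at 3.19-fold, Il1r1, the interleukin 1 receptor, at 2.78-fold and Stat3 at 1.93-fold. In the 12-week liver 1, Il1b reached 4.59-fold, Socs3 3.80-fold and Nfkb1 2.75-fold, and Il1rn, the interleukin 1 receptor antagonist on the list of further acute phase proteins, 10.8-fold. The genes of these sentences were singled out after their values were seen. Of the 8 negative acute phase proteins, 0 were highest or lowest in the 10-week liver 2 and their folds lay between 0.927 and 1.25, with Alb at 0.937-fold.

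Neutrophil markers were high in the 10-week liver 2 and the 12-week liver 1. Of 11 markers 5 passed the filter on low counts in liver. Summed over all 11 they reached 19.99 CPM in the 10-week liver 2 and 20.4 in the 12-week liver 1, and 1.18 to 5.47 in the other 10 livers. S100a8 was at 4.86 and 3.62 CPM in these libraries against a median of 0.431. The 8-week liver 4, next highest in Saa1 (907 CPM), had summed neutrophil markers of 2.05 CPM. Macrophage markers, summed over 9, were highest in the 10-week liver 2 (432 CPM) but not in the 12-week liver 1 (165 CPM, range of the 12 livers 132 to 432), and the summed hepatocyte markers of both libraries (94366 and 99964 CPM) lay inside the range of the others. The part of these cells in the members' levels was not tested.

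**Figure D2:**
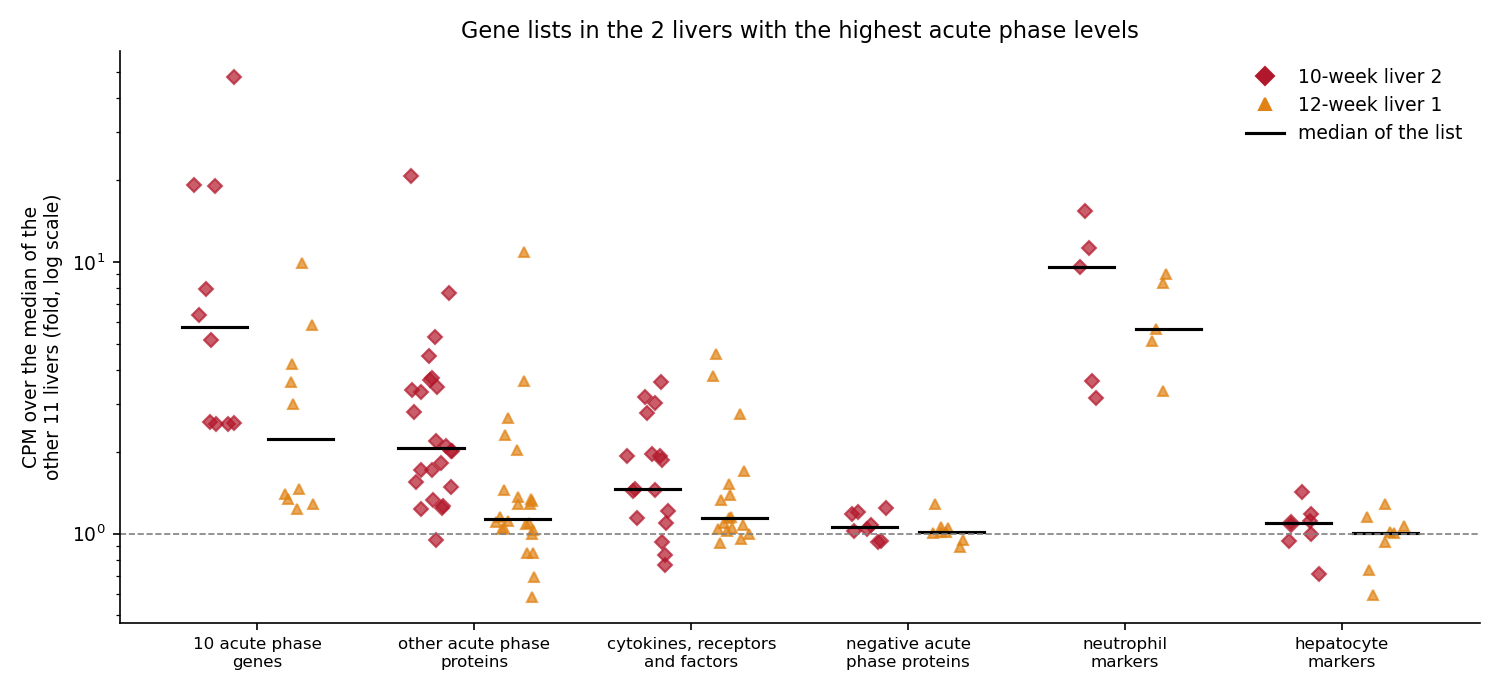
CPM of each gene in the 10-week liver 2 (diamonds) and the 12-week liver 1 (triangles) over the median of the other 11 livers (fold, log scale), by gene list; bars are list medians. The 10 members have medians of 5.77 and 2.23, neutrophil markers 9.55 and 5.67, and negative acute phase proteins and hepatocyte markers lie near 1.

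No member passed the test between ages in liver. In edgeR's quasi-likelihood fit, 0 of 10 members passed an adjusted p of 0.05 at 12 against 8 weeks, where 0.239% of 14672 genes passed, 0 of 10 at 10 against 8 weeks (0.0204%) and 0 of 10 at 12 against 10 weeks (0.0545%). At an unadjusted p under 0.05 the counts were 0, 0 and 1, and DESeq2 and limma-voom called 0 in each. The shares of all genes are so low that 0 of 10 is near the background. At 10 against 8 weeks all 10 log2 differences were above 0, from 0.15 ± 0.32 (SE) for Hp to 2.80 ± 1.59 for Saa2, with adjusted p-values of 0.453 to 0.873. At 12 against 10 weeks all 10 were below 0, from -0.44 ± 0.31 for Orm1 to -2.34 ± 1.56 for Saa2, and Itih4 had the smallest p (-0.70 ± 0.30, unadjusted p = 0.0386, edgeR adjusted p = 0.320). At 12 against 8 weeks 4 were above and 6 below 0, with Lcn2 at -0.87 ± 1.13, Hp at -0.40 ± 0.32, Itih4 at -0.31 ± 0.30, Saa1 at -0.33 ± 1.21 and Saa2 at 0.46 ± 1.496 (edgeR adjusted p-values of 0.587 to 0.926 for these 5). The comparisons at 10 against 8 weeks and 12 against 10 weeks share the 10-week libraries, the 10-week liver 2 among them.

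The differences turned on that pair of livers. Without the 10-week liver 2 and the 12-week liver 1, a setting added after their values were seen, all 10 members were below 0 at 12 against 8 weeks, with Saa2 at -3.70 ± 0.69, Saa1 at -3.27 ± 0.56 and Lcn2 at -2.81 ± 0.43, and 8 of 10 were below 0 at 10 against 8 weeks. The edgeR adjusted p-values at 12 against 8 weeks were then 0.0487 for Saa2, 0.0355 for Saa1, 0.0269 for Lcn2 and 0.0646 for Itih4 (-0.60 ± 0.13), where 0.404% of 14621 genes passed. At 12 against 10 weeks they were 0.0624 for Saa2 (-3.41 ± 0.70), 0.0642 for Saa1 (-2.66 ± 0.56) and 0.139 for Lcn2 (-1.49 ± 0.44). Because the pair was left out for its values in these same genes, the p-values without it are a description of the other 10 livers and not a test between ages. With only the 12-week liver 1 left out, the 12 against 8 weeks difference was -3.27 for Saa1 (edgeR adjusted p = 0.246) and -3.70 for Saa2 (adjusted p = 0.290).

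**Figure D3:**
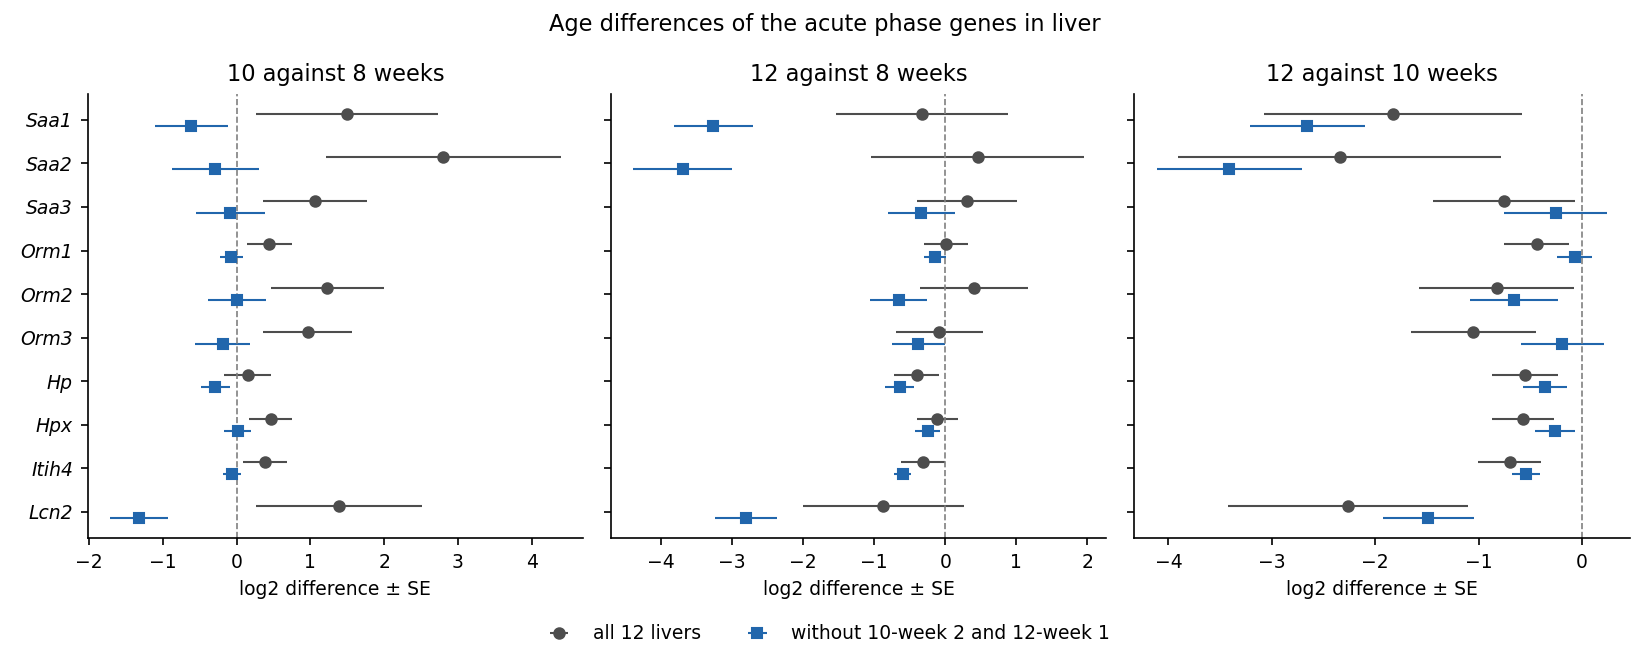
Fitted log2 differences between ages in liver (points, bars ± SE) for the 10 members with all 12 libraries (circles) and without the 10-week liver 2 and the 12-week liver 1 (squares). At 12 against 8 weeks Saa1, Saa2 and Lcn2 are at -0.33, 0.46 and -0.87 with all libraries and at -3.27, -3.70 and -2.81 without the pair.

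The rest of the pathway gave no more calls in liver. Of 24 other acute phase proteins, 8 negative ones, 17 inducing cytokines, receptors and factors and 8 receptors and clearance genes, 0 passed in any of the 3 comparisons with edgeR. The most abundant of these lists were Serpina3k (12264 CPM on average), C3 (6854) and Fga (5996) among acute phase proteins, Alb (72170), Trf (12720) and Apoa1 (8036) among negative ones, Cebpa (517), Il6st (209) and Il1rap (188) among the inducing genes and Lrp1 (808), Scarb1 (145) and Hmox1 (26.6) among receptors and clearance. The median log2 difference of the other acute phase proteins was -0.47 at 12 against 8 weeks, 0.08 at 10 against 8 weeks and -0.43 at 12 against 10 weeks, beside -0.0039, -0.0006 and 0.0064 over all genes.

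Outside the liver the members were low or near 0 counts, and Lcn2 was the member with the smallest difference. All 10 were called higher in liver than in kidney and all 10 higher than in heart in the mean over ages, in an edgeR fit of all 36 libraries. Of 19716 genes, 83.1% and 84.2% passed in either direction, and 37.0% and 42.2% were higher in liver. Only Hp and Lcn2 passed the filter on low counts in kidney, and only these, Saa1, Hpx and Itih4 in heart. Members that did not pass in the other tissue entered the fit through their high liver counts. Those calls are a description and not a test. Lcn2 differed least, by 4.62 ± 0.53 log2 units from kidney (adjusted p = 1.1e-09) and 2.76 ± 0.48 from heart (adjusted p = 3.05e-06). Its livers overlapped both other tissues, from 2.44 CPM in liver against 1.14 to 4.87 in kidney and 2.06 to 10.7 in heart. Hpx was higher in liver than in kidney by 15.59 ± 0.32 and than in heart by 15.02 ± 0.32, Orm1 by 13.41 ± 0.34 and 14.53 ± 0.39, and Hp by 12.49 ± 0.43 and 12.69 ± 0.44. Itih4 stood out by its level in heart, where the liver was higher by 10.68 ± 0.22 against 15.04 ± 0.27 for kidney.

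The serum amyloid and minor orosomucoid genes were at the edge of counting in kidney. Saa1 and Saa2 each had 1 count in 12 kidneys and Orm2 had 3, against 239076, 130079 and 7804 in the livers. Per counted pair, the liver was higher by 247320-fold for Saa1 (95% exact interval 44389 to 9768800), 134570-fold for Saa2 (24152 to 5315200) and 2691-fold for Orm2 (920.5 to 13052). Orm3 had 7 counts in kidney and 22 in heart. A count of 0 in a library allows up to 3 counts, or 0.0918 to 0.141 CPM in kidney and 0.101 to 0.138 in heart. These intervals pool the libraries of a tissue and cover counting error only. The 10-week liver 2 alone held 135070 of the liver counts of Saa1 and 94164 of those of Saa2.

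Between kidney and heart, 3 of 10 members were called, all lower in kidney, where 86.1% of genes passed in either direction and 39.0% were lower in kidney: Itih4 by -4.36 ± 0.33 (edgeR adjusted p = 3.41e-14), Lcn2 by -1.87 ± 0.53 (adjusted p = 0.00179) and Saa3, with 5 counts in kidney and 37 in heart, by -3.06 ± 1.36 (adjusted p = 0.0379). DESeq2 called 5 and limma-voom 2. Itih4 passed the filter on low counts in heart but not in kidney, and Saa3 in neither, so both calls are a description and not a test. For Saa3, adjusted p-values were 0.101 without the 10-week heart 2, 0.122 without the 12-week heart 1, 0.134 without the 8-week heart 3, 0.071 without the 12-week heart 2 and 0.050009 without the 8-week kidney 4.

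**Figure D4:**
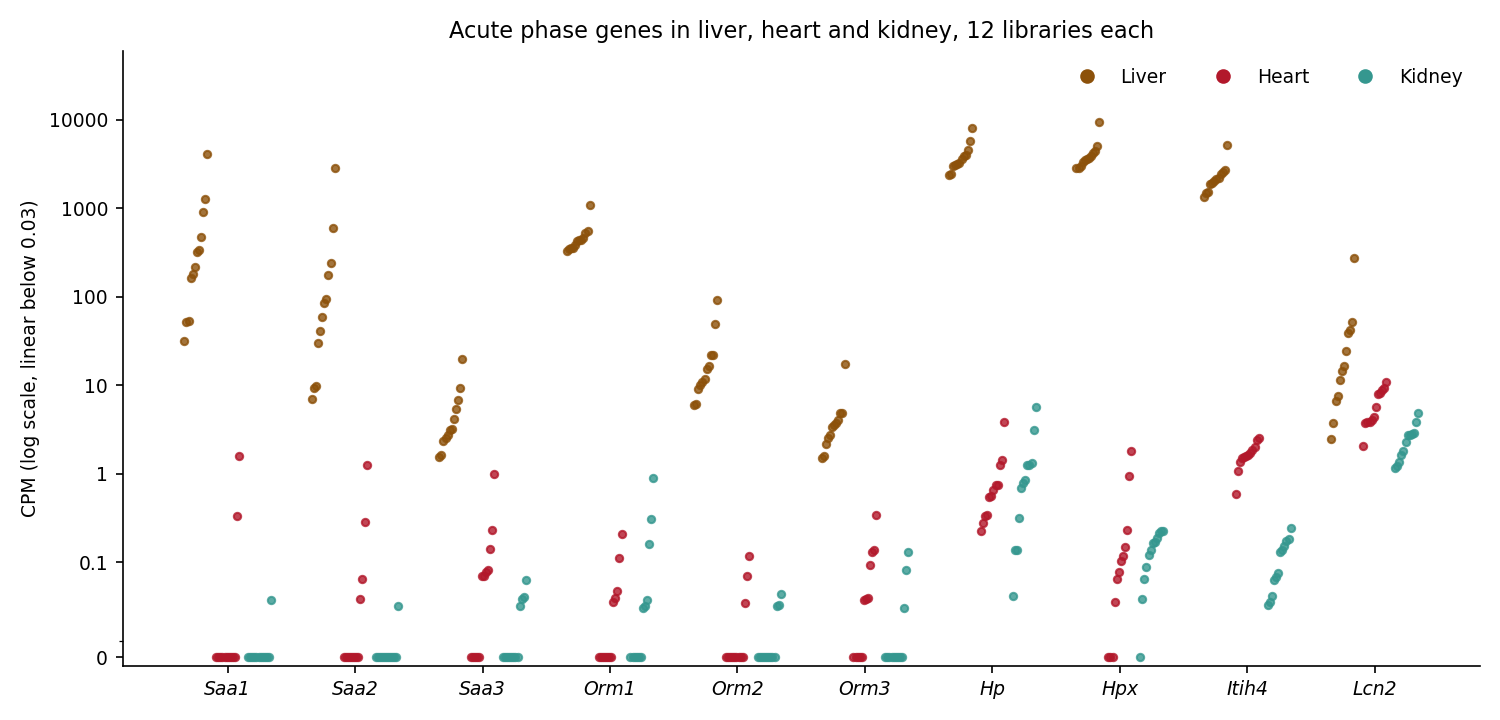
CPM of the 10 members (log scale, linear below 0.03) in the 12 livers, 12 hearts and 12 kidneys, each point a library in order of level. Liver is above the other tissues in every gene except for the overlap in Lcn2, and most heart and kidney values of Saa1, Saa2 and Orm2 are at 0.

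In heart, 5 members were tested, and none was called. Saa1 was listed at 0 in all 4 hearts at 8 weeks and at 12 weeks, and at 10 weeks had 0, 34, 0 and 8 counts, so it passed the filter on low counts through the 10-week group alone. Saa2 had 1, 27, 0 and 7 counts at 10 weeks and 2 counts in the other 8 hearts, and Saa3 had 21 counts in the 10-week heart 2 and 0 to 5 in the others. Hp had 0.563, 0.345, 0.545 and 0.741 CPM at 8 weeks, 1.24, 3.84, 0.737 and 1.44 at 10 weeks, and 0.649, 0.280, 0.226 and 0.335 at 12 weeks. All 10-week hearts were above all 12-week hearts, and the lowest of them, heart 3, was just below the highest 8-week heart. Hpx had 0.055 ± 0.064 CPM at 8 weeks, 0.758 ± 0.779 at 10 weeks and 0.062 ± 0.064 at 12 weeks (SD, n = 4), and at 10 weeks it stood at 1.78 in heart 2 and 0.944 in heart 4. With summed counts of 6, 69 and 7 at the 3 ages, Hpx too passed the filter through the 10-week group alone, so no test of Saa1 or Hpx in heart is given.

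Hp was higher at 10 than at 8 weeks by 1.70 ± 0.45 log2 units (edgeR adjusted p = 0.0798) and lower at 12 than at 10 weeks by -2.30 ± 0.47 (unadjusted p = 0.000146, adjusted p = 0.147). The counts called were 0 of 5 at 12 against 8 weeks, where 4.56% of 15137 genes passed, 0 of 5 at 10 against 8 weeks (1.06%) and 0 of 5 at 12 against 10 weeks (0.0396%). The 5 include Saa1 and Hpx. Apart from these, only Hp had an unadjusted p under 0.05, at 10 against 8 and at 12 against 10 weeks. DESeq2 called Hp at 10 against 8 weeks (adjusted p = 0.0154), and limma-voom called 0 in each comparison. Without the 10-week heart 2, the 10 against 8 weeks difference of Hp was 1.05 (edgeR adjusted p = 0.150). Lcn2 had 7.49 ± 2.39 CPM at 8 weeks, 5.48 ± 1.83 at 10 weeks and 5.09 ± 3.84 at 12 weeks (SD, n = 4), a difference of -0.56 ± 0.37 at 12 against 8 weeks (adjusted p = 0.376), and its highest heart was the 12-week heart 4 (10.7 CPM). Without that library, named here after its value was seen, it was -1.23 (edgeR adjusted p = 0.0203), a description and not a test. With each heart left out in turn it ranged from -1.23 to -0.30 (edgeR adjusted p of 0.0203 to 0.675). Itih4 kept within 0.585 to 2.53 CPM in the 12 hearts.

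Liver transcripts were counted in the same 10-week hearts. Alb had 2, 224, 2 and 368 counts in the 10-week hearts 1 to 4, 0 in each 8-week heart and 0 to 70 at 12 weeks, and the summed hepatocyte markers were 15.5 and 23.4 CPM in the 10-week hearts 2 and 4 and 0.201 to 4.35 in the other 10. Per 100 counts of Alb, heart 2 had 36.6 of Hp, 15.2 of Saa1, 12.1 of Saa2 and 17.0 of Hpx, and the 10-week liver 2 had 12.0, 6.03, 4.21 and 13.7. Heart 4 had 9.51 of Hp, 2.17 of Saa1, 1.90 of Saa2 and 6.25 of Hpx, and the 10-week liver 4 had 5.10, 0.788, 0.288 and 5.85. The ratios to Alb were higher in the heart than in the liver of the same number for all 4 members, by least for Hpx, and no interval was computed for these ratios. In heart 4 they rest on 35 counts of Hp, 8 of Saa1, 7 of Saa2 and 23 of Hpx. The 8-week hearts, with 0 counts of Alb, held 10 to 19 counts of Hp. The labels do not say that a heart and a liver of the same number share a mouse. The 10-week heart 2 also had the highest summed neutrophil markers, 17.2 CPM against 1.81 to 6.60 in the other hearts, with S100a8 at 5.34 CPM. The part of either in the members' levels in heart was not tested.

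In the lists beside the members, the heart had calls. At 10 against 8 weeks 1.06% of all 15137 genes passed. There C3, the central complement component, was higher by 1.32 ± 0.18 (edgeR adjusted p = 0.00180) and C4b by 1.33 ± 0.20 (adjusted p = 0.00325), 2 of 15 other acute phase proteins tested. Ttr (transthyretin), 1 of 6 negative acute phase proteins, and Lrp2, 1 of 9 receptors and clearance genes, were also called, but had summed counts of 10 and 4 at 8 weeks, 94 and 75 at 10 weeks and 30 and 32 at 12 weeks and passed the filter through the 10-week group alone. Ttr is also on the list of hepatocyte markers that were high in the 10-week hearts 2 and 4. At 12 against 8 weeks, where 4.56% of all genes passed, C3 was higher by 0.68 ± 0.17 (adjusted p = 0.0368). This was 1 of 15 other acute phase proteins, near the share of all genes. Of 16 inducing genes, Il6st, the shared receptor chain of the interleukin 6 family, was higher by 0.32 ± 0.08 (adjusted p = 0.0310), and Cebpb (-0.80 ± 0.19, adjusted p = 0.0265), Cebpd (-0.97 ± 0.22, adjusted p = 0.0269) and Nfkbia, the NF-kappa B inhibitor (-0.68 ± 0.14, adjusted p = 0.0173), were lower. At 12 against 10 weeks 0 of these lists' genes passed, where 0.0396% of all genes did.

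In kidney, Lcn2 and Hp were tested and neither was called, 0 of 2 at 12 against 8 weeks (0.0567% of 17649 genes passed), at 10 against 8 weeks (0.929%) and at 12 against 10 weeks (0.482%). Lcn2, which tubules make on injury, had 2.76, 1.81, 2.89 and 2.75 CPM at 8 weeks, 3.87, 4.87, 2.77 and 1.63 at 10 weeks, and 2.30, 1.23, 1.36 and 1.14 at 12 weeks. The 12-week kidneys other than kidney 1 lay below all kidneys of the other ages. The difference was -1.11 ± 0.31 at 12 against 10 weeks (unadjusted p = 0.00327, edgeR adjusted p = 0.108), -0.75 ± 0.32 at 12 against 8 weeks (adjusted p = 0.379) and 0.36 ± 0.30 at 10 against 8 weeks (adjusted p = 0.608). At an unadjusted p under 0.05 the counts of members were 1 at 12 against 8, 0 at 10 against 8 and 1 at 12 against 10 weeks, DESeq2 called Lcn2 at 12 against 10 weeks (adjusted p = 0.0174), and limma-voom called 0. Without the 10-week kidney 4 the edgeR adjusted p at 12 against 10 weeks was 0.0295 for a difference of -1.33. That library is named after its value was seen, so this is a description and not a test. With each kidney left out in turn the difference ranged from -1.40 to -0.85 (edgeR adjusted p of 0.0295 to 0.264). The 10-week kidney 2, the highest in Lcn2, was also highest for 6 of 7 kidney injury markers and 10 of 18 other acute phase proteins, against 10.7% of all genes, and summed injury markers spanned 833 to 1316 CPM over the 12 kidneys. Without it the Lcn2 difference at 12 against 10 weeks was -0.85 (edgeR adjusted p = 0.211). The part of kidney injury in these values was not tested.

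Hp in kidney had 0.138, 5.64, 0.317 and 0.679 CPM at 8 weeks, 3.09, 1.32, 1.26 and 0.780 at 10 weeks, and 1.24, 0.136, 0.0411 and 0.856 at 12 weeks, and fitted differences of -1.49 ± 0.96 at 12 against 8 weeks (edgeR adjusted p = 0.584) and -1.42 ± 0.97 at 12 against 10 weeks (adjusted p = 0.503). Orm1 was below the filter, with 22 of its 37 kidney counts in the 8-week kidney 2 and 7 in the 10-week kidney 1. These are the kidneys with the highest Hp, and their summed adipocyte markers were the highest too, at 37.3 and 30.2 CPM against 4.57 to 19.2 in the other 10. The part of adipose tissue in these values was not tested. Without the 8-week kidney 2, Hp at 12 against 8 weeks was at 0.57 (adjusted p = 0.847). The pathway lists in kidney held 18 other acute phase proteins, 5 negative ones, 18 inducing genes and 9 receptors and clearance genes tested. Of these 1 passed, Hmox1, the haem-degrading enzyme, lower by -1.72 ± 0.27 at 10 against 8 weeks (edgeR adjusted p = 0.0135). In that comparison 0.929% of all genes passed.

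**Figure D5:**
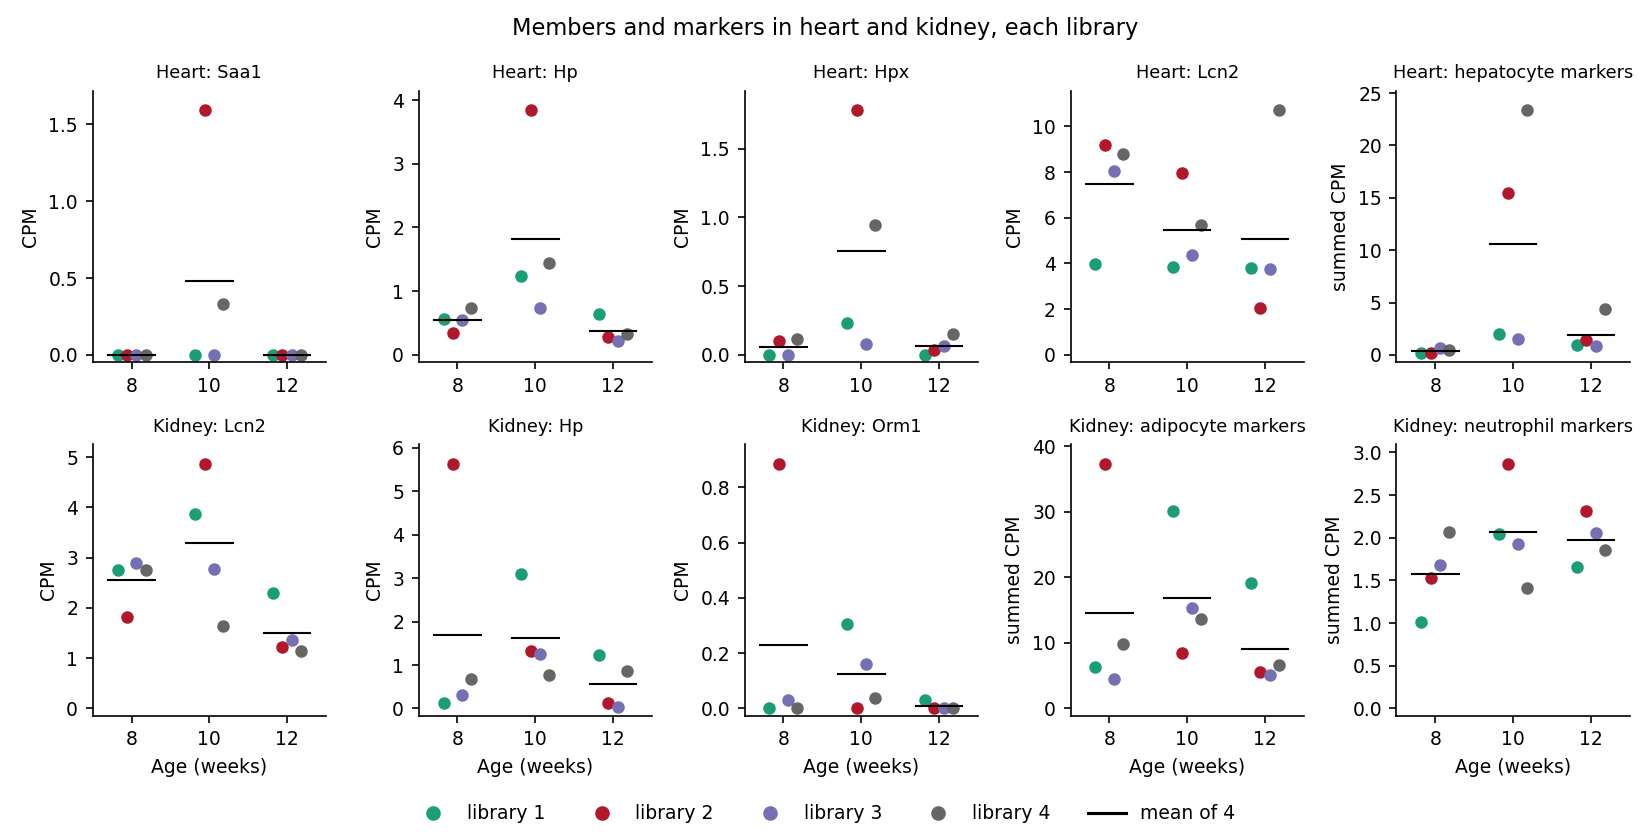
CPM of members and summed CPM of marker lists in each heart (upper row) and kidney (lower row) by age; colours are library numbers and bars the mean of 4. In heart at 10 weeks Saa1, Hp and Hpx are highest in library 2 and the hepatocyte markers in libraries 4 and 2, and in kidney Hp, Orm1 and the adipocyte markers are highest in the 8-week library 2.

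The change from 8 to 12 weeks was not shown to differ between tissues, and for most members it could not be tested. In the interaction terms of the fit of 36 libraries, 0 of 10 members passed for liver against kidney (0.304% of genes passed), liver against heart (4.16%) and kidney against heart (0.112%). At an unadjusted p under 0.05 there were 1, 0 and 0, and DESeq2 and limma-voom called 0 in each. For Lcn2 the liver change minus the heart change was -0.33 ± 1.14 (edgeR adjusted p = 0.996). For members with a few counts in heart or kidney these terms have no useful error and are not given. Such terms could hardly pass, so 0 of 10 is not a test of those members. Of the members, only Hp and Lcn2 passed the filter on low counts in kidney.

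Genes whose pattern over the 12 livers was closest to the mean standardised log2 CPM of the 10 members were Prg4 (Pearson r = 0.940), Stat3 (0.928), Fgl1 (0.921), Xdh (0.920) and Rab7b (0.916). Without the 10-week liver 2 and the 12-week liver 1, over 10 livers, the r values were 0.879, 0.833, 0.951, 0.738 and 0.577. Fgl1, a hepatocyte protein on the list of other acute phase genes, spanned 157 to 1279 CPM. Over the 12 hearts the closest to the 5 tested members were Serpina3n (0.938), Fga (0.891), Kng1 (0.875), Fgg (0.872) and Axl (0.870). Of these Fga, Kng1 and Fgg were at a median of 0 CPM. With 2 libraries left out, over 10 hearts, the r values were 0.816, 0.752, 0.776, 0.670 and 0.698. The mean of the 5 includes Saa1 and Hpx, which passed the filter on low counts through the 10-week hearts alone. Over the 12 kidneys, the closest to the mean of Lcn2 and Hp were Atp7a (0.949), Nifk (0.938), Homer2 (0.938), Tppp3 (0.936) and Ybx3 (0.914). The points share their libraries and their scaling, and the correlations are descriptions.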

How the data were processed

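Poly(A) RNA of 36 organs was sequenced in pairs of 150 bases. The authors trimmed the reads with cutadapt 4.2, checked them with FastQC 0.11.9 and deposited raw counts of read pairs per gene from STAR 2.7.11b on GRCm39 with an Ensembl annotation. The unstranded counts were used, since both strands held 49.8% to 50.2% of the counts. Pairs that map to several places or to overlapping genes were not counted, which lowers members with near copies. Depth was 21031599 to 33637390 counted pairs per library, so 3 counts equal 0.0892 to 0.143 CPM in liver. Groups were taken from the labels. Within each tissue, ages were compared with edgeR 4.0.16 (R 4.3.3), with TMM scaling, quasi-likelihood tests and Benjamini-Hochberg adjustment over all genes, after a filter that needed an age group with at least 2 libraries above 0 and a mean count of at least 10. Tissues and interactions were tested in a fit of all 36 libraries. Calls are adjusted p-values under 0.05. The fit was tested on simulated data. Gene positions and lengths are from a later GENCODE release of the same build. DESeq2 1.42.0, limma 3.58.1 with voom, other scaling and filters, a replicate block, 1-strand counts and each library left out were the alternatives. All 10 members are named, and from other pathway lists the called genes (at most 6) or else the 3 most abundant, and the 5 genes most like the members, apart from the genes said to be chosen after their values were seen. The members and lists were chosen with earlier results of these data known. Equal numbers were not treated as pairs: deviations of same-numbered libraries correlated at -0.265 to 0.171 between ages (median 0.00354, 7 of 36 over 0.1), and at -0.006 to 0.258 between organs (median 0.105, 20 of 36 over 0.1), where not every pair passed 0.1 and the labels name no shared animal. A shared animal between organs was not excluded, and the fits of 36 libraries do not model one outside the replicate block. No libraries of a group agreed within sampling noise (chi-square per gene of at least 5.95).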

Additional observations from a re-analysis of the deposited data

Results flagged for a closer look

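In 14 of 49 groups of 4 libraries looked at, 1 library lay far from the other 3. The measure was Dixon's test of the gap to the nearest library over the range (95% critical value). For normally distributed values chance gives about 1 group in 20. The test took CPM without logs, where that rate need not hold. The members share libraries, so these groups are not independent. In 7 of them the library was the 10-week liver 2, with 4079 CPM of Saa1, 2844 of Saa2, 1098 of Orm1, 17.3 of Orm3, 9285 of Hpx, 5124 of Itih4 and 276 of Lcn2. In 5 it was the 12-week liver 1, with 1251 CPM of Saa1, 588 of Saa2, 48.8 of Orm2, 2706 of Itih4 and 51.9 of Lcn2. The other 2 were the 8-week kidney 2, which had the highest Hp (5.64 CPM) and the lowest Lcn2 (1.81 CPM) of its group.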

How the results depend on the processing

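The counts of members called moved as follows. In heart at 10 against 8 weeks they were 2 with DESeq2 (2.42% of all genes), 4 with no count filter (2.18%) and 2 with the replicate block (1.53%), and with no count filter 1 at 12 against 8 (3.09%) and 4 at 12 against 10 weeks (0.84%). Hpx was 1 of the 2 DESeq2 calls, and Saa1 and Hpx were both calls with the block and among those with no filter. Both genes have counts almost only in the 10-week hearts, so these are not usable as calls. In kidney they were 1 with no count filter at 12 against 8 (1.22%) and at 12 against 10 weeks (2.23%), and 1 with DESeq2 at 12 against 10 weeks (3.72%). Between kidney and heart DESeq2 called 5 (86.5%). For the interactions, no count filter gave 1 for liver against kidney (1.1%) and 1 for kidney against heart (0.302%). Without the 10-week and 12-week pair of libraries (numbers 2 and 1), a setting chosen after seeing the data, 3 were called in liver at 12 against 8 weeks (0.404%). In that setting 1, Lcn2, was called for the interaction of liver against heart (3.04%). Because the pair was left out for its values in these same genes, these calls are a description and not a test. With 1 library left out, counts ranged from 0 to 1 in each heart comparison and in kidney at 12 against 10 weeks, and from 2 to 3 between kidney and heart.

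Some log2 differences changed sign. In liver, Saa2 at 12 against 8 weeks was -1.78 with limma-voom, -1.95 with the replicate block and -3.70 without the pair. At 10 against 8 weeks Lcn2 was -0.0404 with limma-voom and -1.32 without the pair, Saa1 was -0.61 and Saa2 -0.29 without it. With 1 library left out, the ranges at 12 against 8 weeks were -3.27 to 0.32 for Saa1 and -3.70 to 1.15 for Saa2. At 10 against 8 weeks they were -0.61 to 2.15 for Saa1, -0.29 to 3.49 for Saa2 and -1.32 to 1.77 for Lcn2, and at 12 against 10 weeks -4.77 to 0.29, -6.50 to 0.75 and -4.20 to 0.45. Hp in kidney at 12 against 8 weeks ranged from -2.23 to 0.57, and the interaction of Lcn2 for liver against heart from -2.24 to 0.35. The cause was not tested. The replicate block changed no other count of members called.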
